A study of Mus musculus with 6 samples.

Results

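The transcription factors that direct T cells toward effector or memory fates were examined in induced T (iT) cells, comparing CD4 single-positive (CD4SP) with CD8 single-positive (CD8SP) iT cells. The 10 genes, taken by name from the 23420 rows of the expression table, were Tbx21, Eomes, Id2, Id3, Prdm1, Bcl6, Zeb2, Bhlhe40, Maf and Rora. Of these, 5 were called higher in CD4SP iT cells (Maf, Rora, Prdm1, Bhlhe40 and, less firmly, Bcl6; 4 of them without Bcl6, which entered the test only through its CD4SP levels), against 7.92% of all tested genes. Eomes was called higher in CD8SP iT cells, 3 did not pass the test (Tbx21, Id2 and Id3), and Zeb2 was too low to be tested. The mean level of Maf was 55.2 ± 13.8 TPM in CD4SP iT cells against 2.51 ± 1.04 TPM in CD8SP iT cells, and that of Eomes was 9.34 ± 1.22 TPM against 52.2 ± 2.85 TPM (SD, n = 3 libraries each). TPM is a transcript's share of its library after division by transcript length.

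The iT cells of both groups came from embryonic stem cells of C57BL/6 background (CD45.2) that carry a doxycycline-inducible Runx1-p2a-Hoxa9 cassette at Rosa26, called iR9-ESC. Progenitors grown from them were transplanted without further doxycycline into irradiated, immunodeficient B-NDG mice that were 8 weeks old, and CD4SP or CD8SP iT cells were sorted from the spleen 5 weeks later. Each group had 3 libraries, each from 1000 cells, and by the labels the groups differ only in the sorted population. The gate took CD45.2+ cells that were CD4+ or CD8+ and removed Ter119+ and CD11b+ cells, among others, so naive, effector, memory and regulatory cells could all enter it, and CD3 and NK1.1 were not part of it. The study describes each library as a biological replicate, but neither it nor the labels say that the libraries came from separate mice, so the p-values measure the spread between these libraries, which may in part be technical. Wild-type T cells were not analysed here.

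A T cell that meets antigen can become a short-lived effector cell or a long-lived memory cell, and in the CD4 lineage also one of several helper or regulatory types. The T-box factors T-bet (Tbx21) and Eomes drive cytotoxic and interferon-γ programs, with T-bet favouring effector and Eomes favouring memory CD8 T cells. The inhibitors Id2 and Id3 bind E proteins and keep them from DNA, and Id2 is linked to effector and Id3 to memory precursor cells. Blimp-1 (Prdm1) and Bcl6 repress each other in many lymphocytes, Blimp-1 in differentiated effector and regulatory cells and Bcl6 in follicular helper and memory cells. Zeb2 acts with T-bet in terminal effector cells, Bhlhe40 supports cytokine production, c-Maf (Maf) drives interleukin-10 and follicular helper genes, and RORα (Rora) acts in type 17 helper cells.

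The RefSeq start-site windows of Tbx21 and Eomes, the T-box pair of which only Eomes was called, and of Prdm1 and Bcl6, the mutual repressors that were both higher in CD4SP, are shown (GRCm38.p6, 250 bases before to 50 bases after the start, 5′ to 3′ on the strand of the gene). Bcl6 has 2 annotated starts, one at the 5′ end of the gene and one inside an intron. Capitals mark matches to the searched motifs.
Tbx21, chr11:97115282-97115581, minus strand: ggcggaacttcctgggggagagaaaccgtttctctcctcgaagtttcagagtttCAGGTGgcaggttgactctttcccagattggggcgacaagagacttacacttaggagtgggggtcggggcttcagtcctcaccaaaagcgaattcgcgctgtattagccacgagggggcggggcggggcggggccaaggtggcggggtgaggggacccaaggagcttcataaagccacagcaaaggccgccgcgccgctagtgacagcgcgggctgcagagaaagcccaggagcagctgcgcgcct
Eomes, chr9:118477939-118478238, plus strand: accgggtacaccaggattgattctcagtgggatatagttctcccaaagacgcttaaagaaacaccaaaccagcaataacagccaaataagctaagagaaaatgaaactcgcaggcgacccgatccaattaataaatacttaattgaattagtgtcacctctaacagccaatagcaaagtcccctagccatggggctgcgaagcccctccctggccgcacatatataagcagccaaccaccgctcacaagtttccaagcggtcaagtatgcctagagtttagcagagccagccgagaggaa
Prdm1, chr10:44458699-44458998, minus strand: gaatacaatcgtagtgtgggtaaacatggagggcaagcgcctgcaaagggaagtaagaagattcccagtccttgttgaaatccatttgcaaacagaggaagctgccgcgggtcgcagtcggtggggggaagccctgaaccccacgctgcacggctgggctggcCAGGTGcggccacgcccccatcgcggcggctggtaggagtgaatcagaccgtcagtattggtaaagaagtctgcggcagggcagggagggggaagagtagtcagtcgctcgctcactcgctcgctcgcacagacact
Bcl6, 5′ start, chr16:23988803-23989102, minus strand: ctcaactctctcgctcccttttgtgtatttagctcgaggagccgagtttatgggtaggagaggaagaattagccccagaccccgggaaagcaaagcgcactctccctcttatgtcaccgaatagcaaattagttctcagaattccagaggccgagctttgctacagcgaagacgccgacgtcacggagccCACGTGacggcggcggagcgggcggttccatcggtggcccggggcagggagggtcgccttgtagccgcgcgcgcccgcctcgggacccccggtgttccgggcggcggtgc
Bcl6, intronic start, chr16:23981234-23981533, minus strand: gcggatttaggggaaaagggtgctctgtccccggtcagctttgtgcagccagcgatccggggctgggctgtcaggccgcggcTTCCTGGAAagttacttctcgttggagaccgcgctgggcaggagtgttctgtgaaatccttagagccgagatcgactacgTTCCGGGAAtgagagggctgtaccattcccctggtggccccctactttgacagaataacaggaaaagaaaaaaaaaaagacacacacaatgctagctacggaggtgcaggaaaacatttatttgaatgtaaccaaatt

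The motifs were CACGTG (the E-box form of Bhlhe40), CACCTG (the form of the Zeb factors), AGGTGTGA (T-box), GAAAGTG (Blimp-1), TTCCNNGAA (Bcl6, a form that STAT factors also use), TGCTGAC (Maf) and AGGTCA (ROR), searched on both strands. Over all 32851 windows of the same length, the shares with a match were 7.15% for CACGTG, 20.2% for CACCTG, 1.28% for AGGTGTGA, 4.81% for GAAAGTG, 4.81% for TTCCNNGAA, 4.67% for TGCTGAC and 16.3% for AGGTCA. A match to CACCTG was found once in the Tbx21 window, at base 55, and once in the Prdm1 window, at base 164, each read on the opposite strand. CACGTG was found once, at base 191 of the 5′ Bcl6 window. The intronic Bcl6 window held 2 matches to TTCCNNGAA, at bases 83 and 163, and 0.192% of all windows held 2 or more. The Eomes window held none of these letters, as did the windows of Id2, Id3, Rora and Zeb2. A match is a string of letters and was not tested as a binding site. Windows were found for 8 of the 10 genes (12 windows in all), and their median GC content was 59.8% against 52.7% over all windows, with a median of 19 against 7 CpG dinucleotides.

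The libraries matched their labels: Cd4 was higher in CD4SP libraries (log2 difference 8.17, limma adjusted p = 1.12e-07) and Cd8a in CD8SP libraries (-8.77, limma adjusted p = 4.47e-06). CD4 and CD8 were the sorted markers, and Cd4 passed the filter only through the CD4SP libraries, so these differences only check the labels. Cd3e and Lck, general T cell genes, did not pass the test (0.09 and 0.05). TPM summed to between 997895 and 998100 per library, and 10329 to 10649 genes reached 1 TPM in CD4SP and 9971 to 10149 in CD8SP libraries. The sequencing depth is unknown because TPM do not keep it. Transcripts of 83 ribosomal protein genes took 23.5%, 28.2% and 23.9% of TPM in CD4SP replicates 1 to 3 and 31.7%, 31.3% and 35.2% in CD8SP replicates 1 to 3. The median difference over all 10476 tested genes was 0.28 toward CD4SP on the log2 scale, and it was about 0 (-3.87e-05) after median-of-ratios rescaling. The differences below are read against that shift. Libraries were not uniform: CD4SP replicate 2 had 6.56 TPM of Foxp3, the master regulator of regulatory T cells, whereas the other CD4SP libraries had 142 and 167 TPM. The CD8SP libraries had 7.48, 7.48 and 10.05 TPM of Foxp3. In bulk RNA, fewer cells of a type, less RNA per cell and a technical difference between libraries cannot be told apart.

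**Figure D1:**
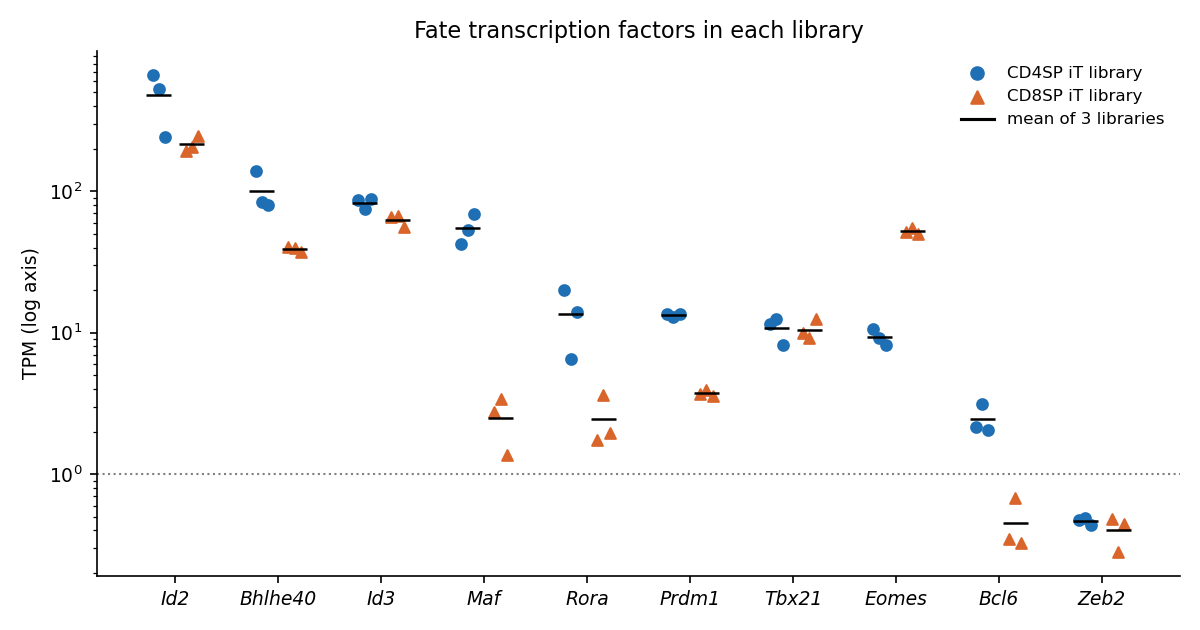
Level of each factor in TPM (log axis) in the 3 CD4SP libraries (circles) and the 3 CD8SP libraries (triangles); horizontal bars are means and the dotted line is the filter at 1 TPM. Maf, Rora, Prdm1, Bhlhe40, Bcl6 and Id3 lie higher in every CD4SP library, Eomes lies higher in every CD8SP library, and Tbx21, Id2 and Zeb2 overlap.

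A gene was tested if it reached 1 TPM in at least 3 of the 6 libraries, and called if limma's adjusted p on log2(TPM + 1) was under 0.05 and the difference was over 2-fold on that scale. This scale understates the change of low genes. Of the 9 factors tested, 5 were called higher in CD4SP, against 7.92% of all tested genes. Without Bcl6, which passed the filter only through the CD4SP libraries, 4 of 8 were called. In the other direction, 1 factor was called higher in CD8SP, against 1.8% of all tested genes. The median difference was 1.24 over the 9 tested factors (1.17 without Bcl6) and 0.28 over all tested genes. All CD4SP libraries lay above all CD8SP libraries for 6 of the 9 tested factors, against 36.6% of the tested genes. Bcl6, with its one-sided passage of the filter, is among these 6. The reverse held for 1 factor, against 6.61% of the tested genes. The factors are few and were named for their roles, so these shares are a description and were not tested.

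**Figure D2:**
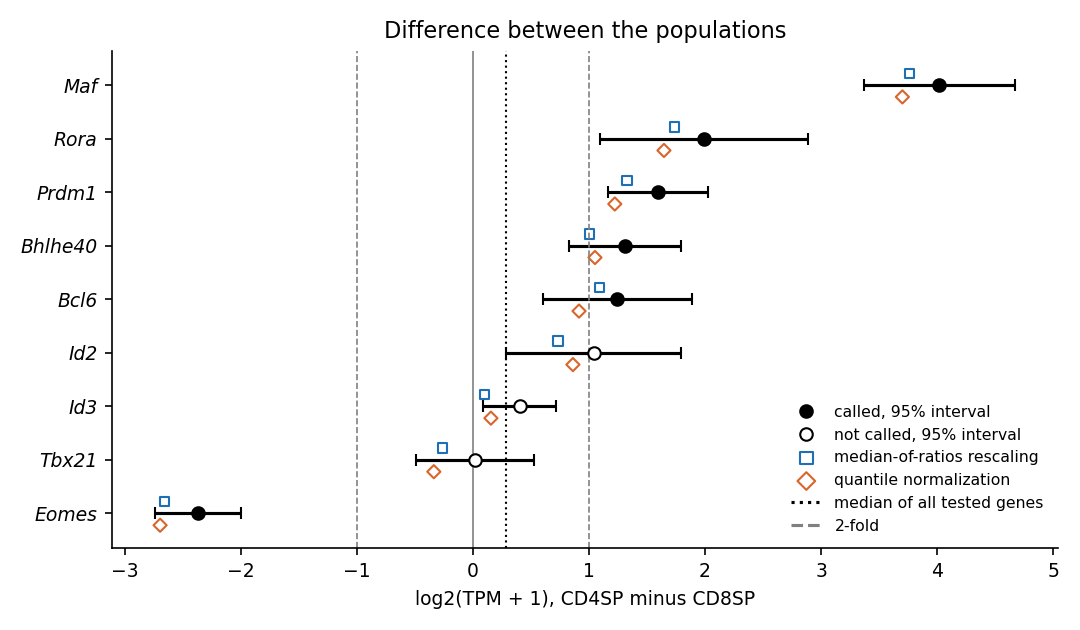
Difference between CD4SP and CD8SP iT cells on the log2(TPM + 1) scale for the 9 tested factors, with limma's 95% intervals (filled circles, called; open circles, not called); squares and diamonds give the values after median-of-ratios rescaling and quantile normalization. Eomes is the only factor with an interval wholly below 0, and Tbx21 is the only one whose sign differs between these 3 scalings.

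Eomes, one of the T-box factors, was the only factor called higher in CD8SP iT cells. Eomes (ENSMUSG00000032446.14, chromosome 9, 118478212 to 118486132, plus strand, protein coding) measured 10.6, 9.20 and 8.19 TPM across CD4SP replicates 1 to 3. CD8SP replicates 1 to 3 measured 51.4, 55.4 and 49.9 TPM. Every CD8SP library lay far above every CD4SP library, and the levels within each group were close together. The means differed 5.59-fold, with a log2 difference of -2.37 (SE 0.16, 95% interval -2.74 to -2.001, limma adjusted p = 5.52e-05). Eomes was called under all 19 alternatives that were run, with log2 differences from -2.70 to -2.29. Relative to the other tested genes, its mean level stood at percentile 31.5 in CD4SP and at percentile 78.1 in CD8SP libraries.

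The natural killer (NK) cell genes that could be tested were higher in CD8SP iT cells, as was Eomes, which NK cells also express. The summed TPM of the 7 NK cell markers examined was 7.05 to 11.7 in CD4SP and 55.4 to 63.8 in CD8SP libraries. The 4 that could be tested (Klrb1c, Klra7, Klre1 and Cd244a) were called higher in CD8SP, against 1.8% of all tested genes. Klra7 was listed at 0 in the CD4SP libraries and passed the filter only through the group where it was high, which leaves 3 calls. The defining NK receptor gene Ncr1, and Klra8 and Klra4, were listed at 0 in all 6 libraries. Of the T cell genes, Cd3e, Cd3d and Lck had adjusted p-values of 0.802, 0.372 and 0.824 with limma, and Cd3g, Cd2 and Cd247 were higher in CD4SP by less than 2-fold (log2 differences 0.45, 0.58 and 0.72, limma adjusted p = 0.0169, 0.00609 and 0.00429). The part of NK cells in the Eomes difference was not tested.

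Tbx21, the other T-box factor, did not pass the test. Tbx21 (ENSMUSG00000001444.2, chromosome 11, 97098071 to 97115331, minus strand, protein coding) measured 11.5, 12.5 and 8.23 TPM across CD4SP replicates 1 to 3. CD8SP replicates 1 to 3 measured 9.997, 9.11 and 12.4 TPM. The groups overlapped, and the highest library of each was at nearly the same level. The log2 difference was 0.02 (SE 0.22, limma adjusted p = 0.956), and its 95% interval of -0.49 to 0.53 leaves room for a difference of less than 2-fold in either direction. Its sign was not fixed, being -0.26 with median-of-ratios rescaling and -0.34 once quantile normalized.

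The ratio of the pair within each library differed between the groups, as the level of Eomes did. The log2 ratio of Tbx21 to Eomes, each as TPM + 1, was 0.10, 0.41 and 0.01 in CD4SP replicates 1 to 3. It was -2.25, -2.48 and -1.92 in CD8SP replicates 1 to 3. CD4SP libraries held nearly equal levels of both factors and CD8SP libraries held more Eomes than Tbx21 in each case. The difference of 2.39 had an exact two-sided permutation p of 0.1, the smallest that 3 libraries against 3 can give, and 0.333 after adjustment over the 5 ratios examined. The difference stayed between 2.26 and 2.54 under the 8 alternatives run for it.

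**Figure D3:**
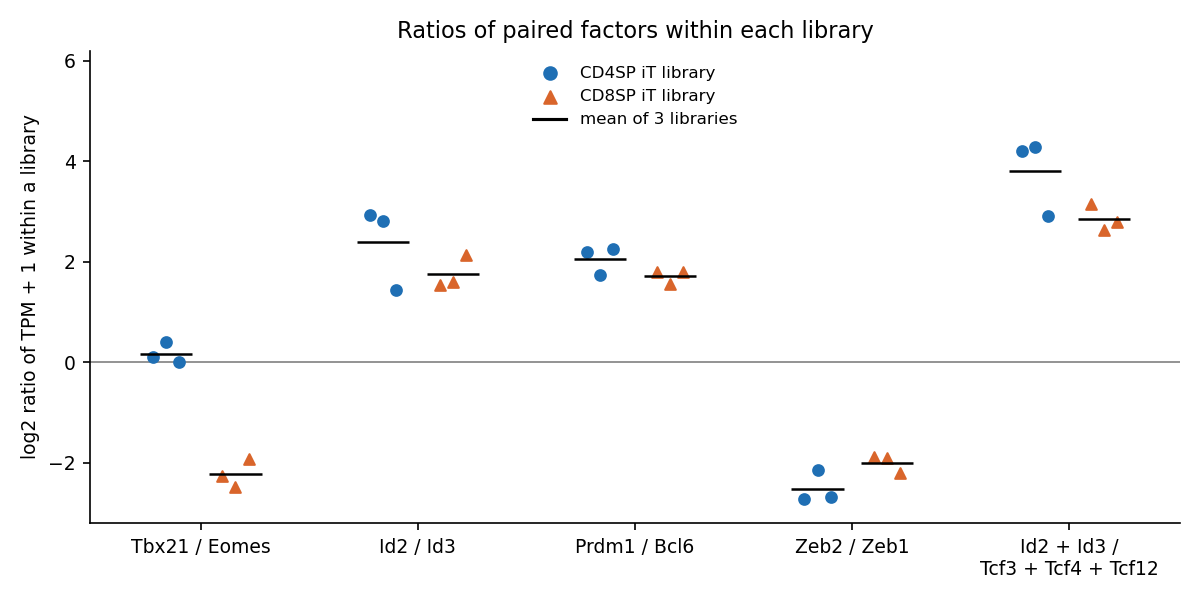
Log2 ratio of paired factors within each library (TPM + 1), for the 3 CD4SP (circles) and 3 CD8SP (triangles) libraries, with horizontal bars at the means. The ratio of Tbx21 to Eomes is near 0 in CD4SP and near -2 in CD8SP libraries, and for the 4 other ratios the populations overlap.

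Genes of the cytotoxic program, which both T-box factors can activate, were in part called in the direction of Eomes. Of 17 such genes tested, 9 passed toward CD8SP and 1 toward CD4SP, against 1.8% and 7.92% of all tested genes. Their median log2 difference was -1.10 beside 0.28 over all tested genes. Granzyme A (Gzma) measured 39.8, 100.7 and 116 TPM across CD4SP replicates 1 to 3 against 1471, 1497 and 1773 TPM across CD8SP replicates 1 to 3 (log2 difference -4.33, limma adjusted p = 0.00014). Perforin (Prf1), which forms the pores through which granzymes act, had CD4SP levels of 9.20, 2.28 and 7.08 TPM and CD8SP levels of 57.3, 62.3 and 51.7 TPM (-3.16, limma adjusted p = 0.00106). The chemokine Ccl5 (-2.44) and the NK receptor subunit Klrd1 (-2.41) had the next largest differences. Gzmk, Ccl3, Ccl4, Nkg7 and Cst7 were also called.

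The other genes of this list included effector genes that did not pass the test and 1 that was called toward CD4SP. Granzyme B (Gzmb) measured 413, 384 and 306 TPM across CD4SP replicates 1 to 3 against 513, 520.3 and 404 TPM across CD8SP replicates 1 to 3, a log2 difference of -0.38 that did not pass (limma adjusted p = 0.107). Interferon-γ (Ifng), a direct target of T-bet, had CD4SP levels of 68.3, 72.1 and 62.3 TPM and CD8SP levels of 83.3, 83.4 and 78.2 TPM (-0.27, limma adjusted p = 0.144). For Ifng the CD8SP libraries all lay above the CD4SP libraries, but by a small amount. Klrg1, a receptor of terminal effector cells that activated regulatory T cells also carry, was the 1 gene called in the other direction, with CD4SP levels of 77.7, 82.4 and 87.7 TPM against CD8SP levels of 28.3, 20.5 and 20.9 TPM (log2 difference 1.80, limma adjusted p = 0.000257).

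Id2 was the most abundant of the factors in both populations, and neither Id gene passed the test. Id2 (ENSMUSG00000020644.9, chromosome 12, 25093799 to 25097140, minus strand, protein coding) measured 668, 532 and 240.4 TPM across CD4SP replicates 1 to 3. Across CD8SP replicates 1 to 3 it measured 192, 206 and 247 TPM. CD4SP replicates 1 and 2 were far above every CD8SP library, whereas CD4SP replicate 3 lay inside the CD8SP range. The log2 difference was 1.04 (SE 0.33, 95% interval 0.29 to 1.79, limma adjusted p = 0.0561). Id2 was called without CD4SP replicate 3 (1.48, limma adjusted p = 0.00302), and also with all libraries kept but weighted (1.04, limma adjusted p = 0.0206). The difference was smaller, and not called, with median-of-ratios rescaling (0.73, limma adjusted p = 0.229), once quantile normalized (0.86, limma adjusted p = 0.161) and without CD4SP replicate 1 (0.74, limma adjusted p = 0.151).

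Id3 (ENSMUSG00000007872.3, chromosome 4, 136143497 to 136145755, plus strand, protein coding) measured 86.5, 74.7 and 87.9 TPM across CD4SP replicates 1 to 3. CD8SP replicates 1 to 3 measured 65.4, 67.1 and 55.6 TPM. The groups did not overlap, yet the log2 difference was only 0.40 (SE 0.14, 95% interval 0.09 to 0.71, limma adjusted p = 0.0703), and it was 0.10 after median-of-ratios rescaling. The log2 ratio of Id2 to Id3 was 2.93, 2.82 and 1.44 in CD4SP and 1.54, 1.61 and 2.13 in CD8SP replicates 1 to 3. Every library held more Id2 than Id3, and the populations overlapped (difference 0.64, exact two-sided permutation p = 0.4). The size of this difference rested on single libraries, being 1.12 without CD4SP replicate 3 and 0.37 without CD4SP replicate 1.

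No gene of the E proteins that the Id proteins bind passed the test. Of the 7 genes of the E protein and Id family, 5 were tested and 0 were called by limma. Over all tested genes, 7.92% were called toward CD4SP and 1.8% toward CD8SP, so this count is near the background and says nothing about the family. Of the 5 genes, 2 (Id2 and Id3) had an unadjusted limma p under 0.05 (0.0126 and 0.0179). The count of called genes was 1 without CD4SP replicate 3 and with library weights, where Id2 was called. E2A (Tcf3) measured 32.2, 20.04 and 25.1 TPM across CD4SP replicates 1 to 3 against 26.04, 22.3 and 21.7 TPM across CD8SP replicates 1 to 3. HEB (Tcf12) was at 7.80, 9.69 and 17.4 TPM in CD4SP libraries but at 1.75, 20.8 and 21.2 TPM in CD8SP libraries, so 1 CD8SP library stood far below the other two. Tcf4 reached at most 0.345 TPM and Id4 at most 0.204 TPM. The log2 ratio of summed Id2 and Id3 to summed Tcf3, Tcf4 and Tcf12 was 2.91 to 4.29 in CD4SP and 2.63 to 3.16 in CD8SP libraries (difference 0.94, exact two-sided permutation p = 0.2).

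Prdm1 and Bcl6, the mutual repressors, were both higher in CD4SP iT cells. Prdm1 (ENSMUSG00000038151.13, chromosome 10, 44437177 to 44528501, minus strand, protein coding) measured 13.5, 12.9 and 13.6 TPM across CD4SP replicates 1 to 3. CD8SP replicates 1 to 3 measured 3.67, 3.95 and 3.59 TPM. The libraries of each group lay close together, with a coefficient of variation of 2.87% in CD4SP and 5.04% in CD8SP libraries, and the groups were well apart. The means differed 3.56-fold, with a log2 difference of 1.59 (SE 0.19, 95% interval 1.16 to 2.02, limma adjusted p = 0.000998).

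Bcl6 (ENSMUSG00000022508.5, chromosome 16, 23965052 to 23988852, minus strand, protein coding) was much lower than Prdm1. It had CD4SP levels of 2.14, 3.16 and 2.04 TPM and CD8SP levels of 0.345, 0.676 and 0.326 TPM. The groups did not overlap, and since Bcl6 reached 1 TPM in the CD4SP libraries alone, it passed the filter only through the group where it was high. The log2 difference was 1.24 (SE 0.28, 95% interval 0.60 to 1.89, limma adjusted p = 0.0174). This call was the least stable of the 6, because it was lost without any single CD8SP library (limma adjusted p = 0.080, 0.0503 and 0.0519 without replicates 1, 2 and 3) and when the levels were quantile normalized (0.91, limma adjusted p = 0.0852) or CD8SP replicates 1 and 2 were averaged (1.27, limma adjusted p = 0.0612). With fewer than 3 CD4SP libraries, or a filter of 5 TPM, it fell below the filter and could not be tested, and when it was kept in the test regardless (a choice made after seeing the data), it was called without each CD4SP library in turn (limma adjusted p = 0.0388, 0.0259 and 0.0374).

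Every library held more Prdm1 than Bcl6. The log2 ratio of Prdm1 to Bcl6 was 2.20, 1.74 and 2.26 in CD4SP and 1.80, 1.56 and 1.79 in CD8SP replicates 1 to 3. The populations overlapped (difference 0.35, exact two-sided permutation p = 0.3), and with a pseudocount of 0.1 the difference was -0.44. The sign of this difference thus depended on the pseudocount.

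Zeb2, the partner of T-bet in terminal effector cells, had the lowest mean level in both populations, although its CD8SP libraries overlapped those of Bcl6. Zeb2 (ENSMUSG00000026872.17, chromosome 2, 44983632 to 45117395, minus strand, protein coding) measured 0.474, 0.491 and 0.434 TPM across CD4SP replicates 1 to 3 against 0.484, 0.282 and 0.442 TPM across CD8SP replicates 1 to 3. The groups overlapped and no library reached 1 TPM, so Zeb2 was not tested, and without the filter its log2 difference was 0.07 (limma adjusted p = 0.769). Its relative Zeb1, which is associated with memory cells, had CD4SP levels of 8.75, 5.59 and 8.25 TPM and CD8SP levels of 4.46, 3.82 and 5.61 TPM (0.59, limma adjusted p = 0.121). All 6 libraries thus held more Zeb1 than Zeb2, and the log2 ratio of Zeb2 to Zeb1 did not separate the populations (difference -0.52, exact two-sided permutation p = 0.2).

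Bhlhe40, Maf and Rora, which act in cytokine-producing helper cells, were all higher in CD4SP iT cells. Maf (ENSMUSG00000055435.6, chromosome 8, 115682942 to 115707794, minus strand, protein coding) measured 42.2, 53.6 and 69.7 TPM across CD4SP replicates 1 to 3. Across CD8SP replicates 1 to 3 it measured 2.76, 3.40 and 1.36 TPM. This was the largest difference among the factors, with the groups far apart. The log2 difference was 4.02 (SE 0.28, 95% interval 3.37 to 4.67, limma adjusted p = 7.19e-05). Among the tested genes, its mean level stood at percentile 75.0 in CD4SP and at percentile 13.7 in CD8SP libraries.

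Rora (ENSMUSG00000032238.17, chromosome 9, 68653786 to 69388246, plus strand, protein coding) measured 19.96, 6.55 and 13.9 TPM across CD4SP replicates 1 to 3. CD8SP replicates 1 to 3 measured 1.74, 3.64 and 1.95 TPM. Rora varied most among the CD4SP libraries, with a coefficient of variation of 49.8%, and was lowest in CD4SP replicate 2. The groups nevertheless did not overlap, and the log2 difference was 1.99 (SE 0.39, 95% interval 1.10 to 2.89, limma adjusted p = 0.00969). CD4SP replicate 2 is also the library with little Foxp3, and without it the difference was 2.40 (limma adjusted p = 0.00335). In that same library Maf, Prdm1 and Bhlhe40 were not set apart from the other CD4SP libraries. Bcl6 was highest there, at 3.16 TPM against 2.14 and 2.04 TPM in CD4SP replicates 1 and 3.

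Bhlhe40 (ENSMUSG00000030103.11, chromosome 6, 108660629 to 108666925, plus strand, protein coding) was the second most abundant factor in CD4SP iT cells. It measured 139, 83.7 and 80.6 TPM across CD4SP replicates 1 to 3 against 40.1, 39.7 and 37.1 TPM across CD8SP replicates 1 to 3. The CD8SP libraries were nearly identical, and CD4SP replicate 1 was above the other CD4SP libraries. The log2 difference was 1.31 (SE 0.21, 95% interval 0.83 to 1.79, limma adjusted p = 0.00420). It was 1.01 after median-of-ratios rescaling, just over the 2-fold limit, and 1.06 without CD4SP replicate 1, and Bhlhe40 was called in both cases.

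Annotated genes on the opposite strand overlap 6 of the factors (Eomes, Bcl6, Zeb2, Bhlhe40, Maf and Rora), and whether strand was used in the counting was not stated, so reads of such a pair cannot be told apart. The overlap of Maf with Gm15655 covers 402 nt of identical sequence on the opposite strand. The partner of Bhlhe40, 0610040F04Rik, was listed at 0 in all libraries. No factor had a near-identical copy elsewhere.

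Close relatives of the factors were read in the same way. Of 12 relatives, 7 were tested, and 2 were called higher in CD4SP, against 7.92% of all tested genes, a count that was 1 without CD4SP replicate 3 and once quantile normalized. One of these was Mafg, a small Maf protein without an activation domain, which measured 26.4, 20.8 and 16.8 TPM across CD4SP replicates 1 to 3 against 6.90, 7.46 and 6.58 TPM across CD8SP replicates 1 to 3 (log2 difference 1.46, limma adjusted p = 0.00244). The other small Maf genes tested were not called, with log2 differences of 0.0018 for Mafk (limma adjusted p = 0.994) and 0.65 for Maff (limma adjusted p = 0.182). Bhlhe41, the closest relative of Bhlhe40, reached at most 0.174 TPM.

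The order of levels, which TPM allows because it is per length, differed between the populations. In CD4SP iT cells the means ran from Id2 through Bhlhe40, Id3, Maf, Rora, Prdm1, Tbx21, Eomes and Bcl6 to Zeb2. Neighbours whose libraries overlapped there were Bhlhe40 and Id3, Rora and Prdm1, and Tbx21 and Eomes. In CD8SP iT cells the order was Id2, Id3, Eomes, Bhlhe40, Tbx21, Prdm1, Maf, Rora, Bcl6 and Zeb2, where the libraries of Maf and Rora and those of Bcl6 and Zeb2 overlapped. Eomes moved from the 8th to the 3rd place, and Maf from the 4th to the 7th.

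Genes of the T cell states that these factors direct were then counted, from lists of genes with textbook roles. Helper and regulatory types arise in the CD4 lineage, so higher levels of their genes in CD4SP cells go with the sort itself. A link between these genes and the factors was not tested. Of 9 follicular helper genes tested, 6 were called higher in CD4SP and 0 in CD8SP (all tested genes, 7.92% and 1.8%), with a median log2 difference of 1.06 (all tested genes, 0.28). Icos, a costimulatory receptor upstream of Maf and Bcl6, had CD4SP levels of 471, 334 and 432 TPM and CD8SP levels of 82.8, 82.4 and 65.3 TPM (2.40, limma adjusted p = 5.41e-05). Cd40lg, the helper signal to B cells, measured 40.1, 53.4 and 43.1 TPM across CD4SP replicates 1 to 3 and was listed at 0, 0.389 and 0 TPM in CD8SP libraries. Cxcr5 and Pdcd1, which define follicular helper cells most closely, had differences under 2-fold (0.64 and 0.47), and Ascl2 was listed at 0 in all libraries. Cd40lg passed the filter only through the CD4SP libraries, and over the other 8 tested genes 5 were called, with a median of 1.03. The count of 6 fell to 3 with median-of-ratios rescaling, once quantile normalized, or without CD8SP replicate 3.

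Genes of type 17 and type 2 helper cells were mostly called higher in CD4SP iT cells, as Maf and Rora were. Of 11 tested, 9 were called higher in CD4SP and 0 in CD8SP, where the shares over all tested genes were 7.92% and 1.8%, with a median of 2.86 beside 0.28. Ccr6, a chemokine receptor of type 17 cells, measured 32.3, 15.3 and 38.2 TPM across CD4SP replicates 1 to 3 against 1.56, 1.08 and 0 TPM across CD8SP replicates 1 to 3. Il10, a target of c-Maf, had CD4SP levels of 54.1, 24.7 and 53.6 TPM and CD8SP levels of 1.74, 2.45 and 11.2 TPM (3.13, limma adjusted p = 0.00608). Across CD4SP libraries Il17a measured 8.66, 4.66 and 11.3 TPM and Il4 8.16, 6.62 and 4.50 TPM, and in CD8SP libraries Il4 was listed at 0 throughout and Il17a did not exceed 0.283 TPM. These cytokines were present at low levels beside Ccr6 and Il10. Il17a, Il17f, Il4 and Ccr4 reached 1 TPM in the CD4SP libraries alone and so passed the filter only through the group where they were high. Over the other 7 tested genes, 5 were called higher in CD4SP, with a median of 1.96. For the whole list, 5 instead of 9 were called when any 1 of the CD4SP libraries was left out. Il17a, Il17f, Il4 and Ccr4 then fell below the filter and could not be tested, so the count could not include them.

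Of 13 regulatory T cell genes, all tested, 12 were called higher in CD4SP and 0 in CD8SP, with a median of 2.79. Over all tested genes the shares were 7.92% and 1.8% and the median was 0.28. Areg and Gpr83 passed the filter only through the CD4SP libraries, and over the other 11 genes 10 were called, with a median of 2.64. Tnfrsf4 measured 1201, 1157 and 1124 TPM across CD4SP replicates 1 to 3 against 44.3, 46.4 and 37.01 TPM across CD8SP replicates 1 to 3 (4.74, limma adjusted p = 2.38e-07). Lrrc32, which presents latent TGF-β on regulatory cells, had CD4SP levels of 42.6, 62.5 and 55.98 TPM and CD8SP levels of 0.912, 1.16 and 0.983 TPM (4.75, limma adjusted p = 6.38e-06). Foxp3 was the 1 gene not called (2.61, SE 1.01, limma adjusted p = 0.1005), with CD4SP replicate 2 below the CD8SP libraries. It was called with library weights and with a replicate block, and in both cases all 13 genes were. In CD4SP replicate 2, Il2ra was at 91.98 TPM (95.7 and 82.1 TPM in replicates 1 and 3) and Ctla4 at 814 TPM (866 and 937 TPM). Ctla4, Tnfrsf18, Ikzf2, Ikzf4, Nrp1 and Ccr8 were also lowest in that CD4SP library. Their drops were small beside that of Foxp3 (6.56 TPM against 142 and 167 TPM). Ikzf4, which fell the most of these in proportion, was at 7.02 TPM against 9.97 and 10.9 TPM. Areg, Gpr83 and Lrrc32 were highest there, and Il2ra, Tnfrsf4 and Itgae lay between the others. Prdm1 and Maf were close to the other CD4SP libraries. Regulatory T cells are known to express Prdm1 and Maf, and their share among the CD4SP cells was not measured.

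Of 12 naive and memory genes tested, 1 was called higher in CD4SP and 1 in CD8SP, against 7.92% and 1.8% of all tested genes, with a median of 0.35 beside 0.28 over all tested genes. These counts are near the background and say nothing about the list. These 2 calls were 1 without CD8SP replicate 2 or with CD8SP replicates 1 and 2 averaged, and 6 with no fold threshold. Bcl2, a survival factor of memory cells, measured 96.3, 117 and 99.7 TPM across CD4SP replicates 1 to 3 against 218, 236 and 191 TPM across CD8SP replicates 1 to 3 (-1.03, limma adjusted p = 0.00153). Myb was called in the other direction (1.29, limma adjusted p = 0.00695).

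**Figure D4:**
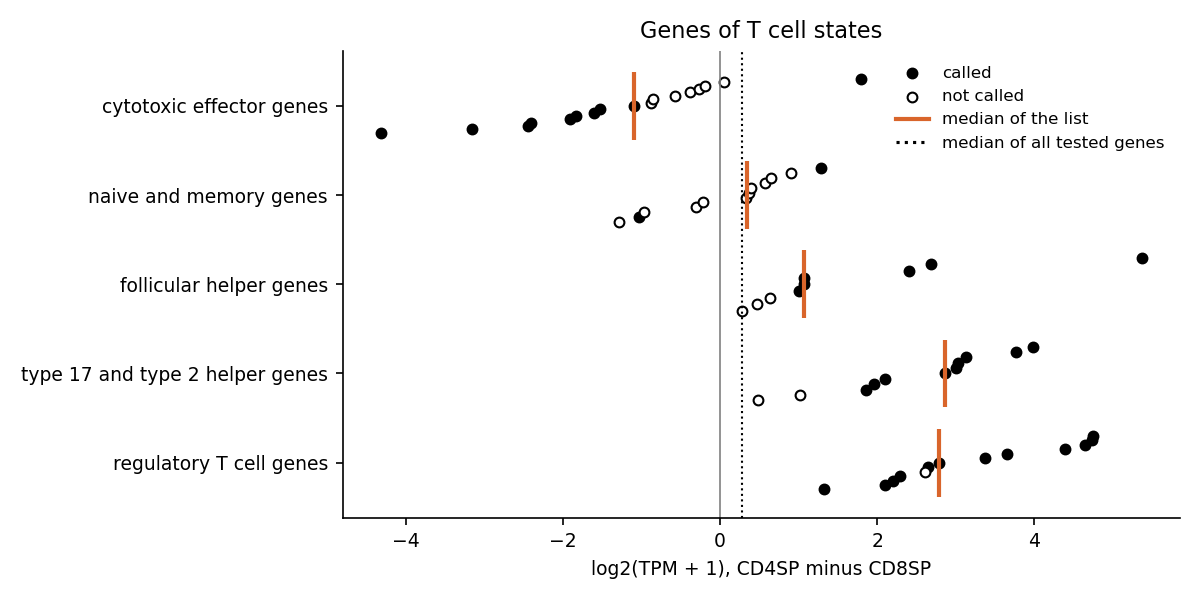
Difference between CD4SP and CD8SP iT cells on the log2(TPM + 1) scale for each tested gene of 5 lists of T cell states (filled, called; open, not called), with the median of each list and of all tested genes. Cytotoxic genes lie mostly below 0 (median -1.10), regulatory and type 17 and type 2 helper genes above 0 (medians 2.79 and 2.86), and naive and memory genes on both sides of 0.

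Markers of other cell types were read beside the factors that were higher in CD4SP. Cd74, H2-Aa and H2-Ab1, antigen presentation genes of dendritic and B cells, were called higher in CD4SP, and the sum of the 8 dendritic cell markers was 91.3 to 117 TPM in CD4SP and 45.2 to 54.8 TPM in CD8SP libraries. Of that list Clec9a was listed at 0 in all libraries and Itgax, which reached 1 TPM in the CD8SP libraries alone, was called higher in CD8SP. Of the 8 myeloid markers, Lyz2 was called higher in CD4SP and Cd68 higher in CD8SP, the sum was 17.7 to 32.9 TPM in CD4SP and 20.9 to 24.6 TPM in CD8SP libraries, and 0 TPM was listed for S100a8 and S100a9 throughout. Of the 8 B and plasma cell markers, 3 were tested and 0 were called by limma (1, Cd79b, had an unadjusted p under 0.05, 0.0418). Over all tested genes, 7.92% were called toward CD4SP and 1.8% toward CD8SP, so this count is near the background. Pax5 and Ms4a1 were listed at 0 in all libraries. Of the 6 innate-like T cell markers, 3 were found in the table by their names and the γδ T cell receptor genes of the list were not analysed here. Zbtb16 and Sox13 were listed at 0 in all libraries and Cd163l1 was called higher in CD8SP. The part of these cells in the differences was not tested.

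For each called factor, the 3 genes whose log2(TPM + 1) followed it most closely over the 6 libraries were listed, among 8245 tested genes (8246 for Bcl6) with a mean of at least 5 TPM. Because the groups differ, r mostly reflects that difference, and the 6 points share their libraries, so r is a description. Eomes was followed by Nkg7 (Pearson r = 0.9991), Cd8b1 and Celf2, and 25 genes had r above 0.99 with it. Maf was followed by Snx18 (0.9995), Pik3c2a and Cd6, with 78 genes above 0.99. Prdm1 was followed by Ccr8 (0.9997), Nfkbia and Gatsl3, with 114 genes above 0.99. Rora was followed by Pik3r1 (0.9990), Stat3 and Ints5, and 14 genes were above 0.99. Bhlhe40 was followed by Aplp2, Slc29a1 and Zfp574, and Bcl6 by Ifngr2, Cyb5 and Atl3, with 12 and 11 genes above 0.99.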

How the data were processed

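RNA was measured in 3 CD4SP and 3 CD8SP iT cell libraries, grouped by the labels. According to the study's methods, the authors amplified cDNA, aligned reads to mm10 with HISAT2 and estimated levels with StringTie, which they deposited as TPM with 1 column per library. TPM keeps no depth, so no counting intervals were computed, and a level depends on the rest of its library. No deposited column of per-sample values was left unused.

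Levels were analysed as log2(TPM + 1) for 10476 of 23420 rows (at least 1 TPM in at least 3 of 6 libraries; 9818 rows were 0 in all) with limma 3.58.1 in R 4.3.3 (eBayes with a mean-variance trend) and Benjamini-Hochberg adjustment over all tested genes. Positive values are higher in CD4SP. Calls needed an adjusted p under 0.05 and a log2 difference over 1. Ratios within libraries were compared by exact two-sided permutation over the 10 splits, with SciPy 1.17.1 in Python 3.11.15. The analysis was tested on simulated data.

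The factors, lists and tests were chosen with earlier results of these data known. All 10 factors are named. List genes could be named where called (up to 4 per direction) or defining, and also the 3 genes most like each called factor, and Foxp3. Genes outside this rule were chosen after their values were seen. They were Nkg7, Gzmk, Ccl3, Ccl4 and Cst7 as part of their count, and single members given for contrast such as Gzmb and Ifng. The regulatory T cell genes placed by their level in CD4SP replicate 2 were also named after their values were seen. Some items that the lists count are not reported here by name. Gene positions follow GENCODE M21 (GRCm38, which is the assembly of mm10), copies were searched with blastn 2.17.0 (at least 95% identity over 200 nt), and start-site sequences are from RefSeq on GRCm38.p6. The alternatives changed the pseudocount (0.1), the filter (none or 5 TPM), the scaling (median-of-ratios, quantile, or without 83 ribosomal protein genes), the model (no trend, library weights, a replicate block, the mean of CD8SP replicates 1 and 2 as 1 library), the fold threshold (none) or the libraries (each left out in turn). Leaving out each CD4SP library while keeping the tested genes fixed, and counting lists without genes that reached 1 TPM in 1 population only, were added after seeing the data. The library weights were 0.851, 0.233 and 0.875 for CD4SP and 4.59, 2.84 and 0.443 for CD8SP replicates 1 to 3. CD8SP replicates 1 and 2 thus counted most in the weighted fit, and the labels do not say whether they are independent.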

Additional observations from a re-analysis of the deposited data

How the results depend on the processing

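Eomes, Maf, Rora, Prdm1 and Bhlhe40 kept their direction and their call under all 19 alternatives run for each. In every alternative, between 4 and 6 factors passed toward CD4SP and 1 passed toward CD8SP; Bcl6 was lost and Id2 gained as described in the report. The Tbx21 difference changed sign, to -0.26 with median-of-ratios rescaling, -0.34 once quantile normalized, -0.12 when the ribosomal protein genes were removed and -0.038 with CD8SP replicates 1 and 2 averaged, and leaving out each library gave -0.091 to 0.18, never with a call. With the tested genes held fixed it was -0.033 without CD4SP replicate 1 and -0.091 without CD4SP replicate 2. The Prdm1 to Bcl6 ratio difference was -0.44 with a pseudocount of 0.1. Over all genes, 1019 were called (81.5% of them higher in CD4SP), and 2183 with no fold threshold. Median-of-ratios rescaling called 788 (61.4% higher in CD4SP), quantile normalization 777 (57.1%), and removal of ribosomal protein genes 937 (73.0%), whose median shift was 0.15. Leaving out each library gave 752 to 1042. Adding a replicate block to the model gave 997 called genes, with 5 factors higher in CD4SP and 1 in CD8SP, and all 13 regulatory T cell genes called, Foxp3 included. The shared numbers were not taken as a pairing, since the labels give only a number. Deviations of same-numbered libraries correlated at 0.05, -0.02 and 0.09. A correlation over all genes cannot show whether such libraries came from the same mouse, so a pairing remains possible. With 3 libraries per population and unknown depth, the levels of low genes such as Bcl6 and Zeb2 are uncertain. The cause of these changes was not tested.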
